A study of Mus musculus with 23 samples.

Results

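The nuclear receptors are a family of transcription factors, many of which are switched by small fat-soluble ligands such as retinoids, thyroid hormone, steroids, fatty acids and oxidised sterols. The group described here held 44 of the 18412 genes in the tables, chosen by symbol as the nuclear receptors other than Esrrb and Nr0b1. The rule itself used no measured value, but it was set with earlier results of these data known. Members with a mean under 10 normalised reads over the exon columns of a series were set aside as too low to describe. That left 32 members in the time course, 30 in the rescue and 29 in the genetic series. All 29 were above 10 in every series, 32 were above it in at least 1 series and 12 were below it in all. The lowest members kept in the time course were Rarb at 10.3 and Esr2 at 10.5, and the highest left out was Nr1i2 at 7.15. In the rescue Rarb was kept at 10.3 and Nr0b2 left out at 8.99, and in the genetic series Nr1h3 was kept at 13.4 and Nr0b2 left out at 9.62.

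The data were strand-specific sequencing of polyadenylated RNA from 23 samples of mouse ES (embryonic stem) cells, cultured on gelatin in serum with leukaemia inhibitory factor. Argonaute proteins load microRNAs and lower the mRNAs that pair with them, and the study asked what follows when ES cells lose all 4 Argonautes. The genetic series held the clones C62 and C86 (Blm-/-;Ago1,2,3,4-/-;CreERT2, n = 2, called Argonaute-null clones below), the line E7 (Blm-/-;Ago1,2,3,4-/-;CreERT2;hAgo2fl, with a floxed human Ago2, n = 3), the line B9 (Blm-/-;Ago1,3,4-/-, n = 2) and wild-type AB2.2 cells (n = 2). The time course and the rescue used the clonal line TT-FHAgo2, which is Blm-/- and Ago1,2,3,4-/-, carries CreERT2, and has an Ago2 transgene (TT-FHAgo2) driven by doxycycline. For the time course the cells had 2.5 µg/mL doxycycline for 48 h and were sampled 0, 24, 48 or 96 h after its removal, with n = 2 at each time. In the rescue, cells that had been 96 h without doxycycline were sampled at once or after a further 48 h at 0.1 or 2.5 µg/mL, with n = 2 at each dose. Cells sampled later were also longer in culture than their controls, and time in culture cannot be told apart from the change in doxycycline. Blm loss likewise cannot be told apart from Argonaute loss in the comparisons with wild type.

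The deposited columns were group means, from which the values of the single libraries were recovered as whole read numbers. A library of the genetic series had 13.52 to 53.69 M exon reads, a time course library 32.87 to 62.4 M and a rescue library 24.7 to 53.77 M. Log2 changes had a median standard error, over all genes, of 0.336 to 0.368 for the comparisons of genotypes, 0.0797 for those of times and 0.0910 for those of doses. Changes between genotypes had thus to be larger to be called. Ago1 had 0 reads in every clone, E7, B9 and TT-FHAgo2 library, against 3514 and 4693 normalised reads in wild type. Ago2 exon reads of the rescue did not follow doxycycline: they were 7260 and 7300 (no doxycycline), 7776 and 7672 (0.1 µg/mL) and 6093 and 5284 (2.5 µg/mL). In the time course they went from 11759 and 12167 on the day of removal to 10771 and 10817 after 96 h. Argonaute-null clones, with 5199 and 6439 Ago2 exon reads, overlapped wild type, with 5200 and 7254. Such reads therefore do not show whether Ago2 was lost or the transgene was on, and transgene expression was not tested. The 10 ES cell markers were detected in every library of the time course, with a summed level of 514781 to 515056 at 96 h against 494100 to 500006 at 0 h. The sum held moves in both directions. Pou5f1, Zfp42, Klf4, Esrrb and Utf1 had lower means at 96 h than at 0 h (Utf1, 16807.5 against 26018). Sox2, Nanog, Tdgf1, Dppa5a and Fgf4 had higher ones (Fgf4, 32068 against 18137). Trophoblast markers summed to 6420.0 to 6723 normalised reads at 96 h against 4690.5 to 4751 at 0 h. Of 6 trophoblast markers tested 2 were higher and 0 lower (all genes, 32.4% and 32.5%). Neural markers summed to 10963 to 11106 against 9954 to 10733, with Neurog2 at 0 at 96 h. Primitive endoderm markers summed to 488 to 527 against 510.3 to 522. The part of these cell types in the results was not tested. In these bulk samples fewer cells of a type and less RNA per cell cannot be told apart.

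Most family members act by binding paired copies of a short DNA element, either as homodimers or as heterodimers with a retinoid X receptor (Rxra, Rxrb or Rxrg). Retinoic acid receptors, which pair with retinoid X receptors, mediate the exit of ES cells from self-renewal under retinoic acid, and the orphan receptors Nr5a2 and Nr6a1 are known in these cells as an activator and a repressor of Oct4.

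Per kilobase of exon, the retinoic acid receptor Rarg and the liver X receptor Nr1h2 stood highest among the described members in each of the 4 groups given here. Esrrb, which is outside the set, stood higher, at 4050 normalised reads per kb in wild type and 15855 at 0 h. In Argonaute-null clones the order began with Nr1h2 at 2120.3 normalised reads per kb, Rarg at 961, the haem-binding clock repressor Nr1d2 at 853 and the immediate-early orphan receptor Nr4a1 at 726. In wild-type cells it began with Rarg at 2311, Nr1h2 at 913, Rxrb at 640.4 and Nr6a1 at 573. At 0 h of the time course Rarg stood at 3601, Nr1h2 at 2291, the COUP-TF relative Nr2f6 at 1624 and Nr6a1 at 1562. At 96 h the order was Nr1h2 at 2905, Rarg at 2808, Nr1d2 at 2068 and Nr6a1 at 1566 per kb. The lowest kept members were Pgr in the clones at 1.26 per kb and Esr1 in wild type at 0.144. Nr2f2 stood at 49.5 per kb in the clones against 3.50 in wild type. Esr1 stood at 55.1 in the clones, which carry CreERT2, and its reads cannot be told apart from that transgene. The 12 members below 10 were Pparg, Rorb, Nr1h4, Nr1i2, Nr1i3, Hnf4g, Nr2e1, Nr2e3, Nr2f1, Esrrg, Nr4a3 and Nr5a1. Among them single groups passed 10 normalised reads for Nr4a3 (17.6 in the clones), Nr1i2 (14.4 at 96 h) and Nr2f1 (11.9 at 2.5 µg/mL).

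**Figure D1:**
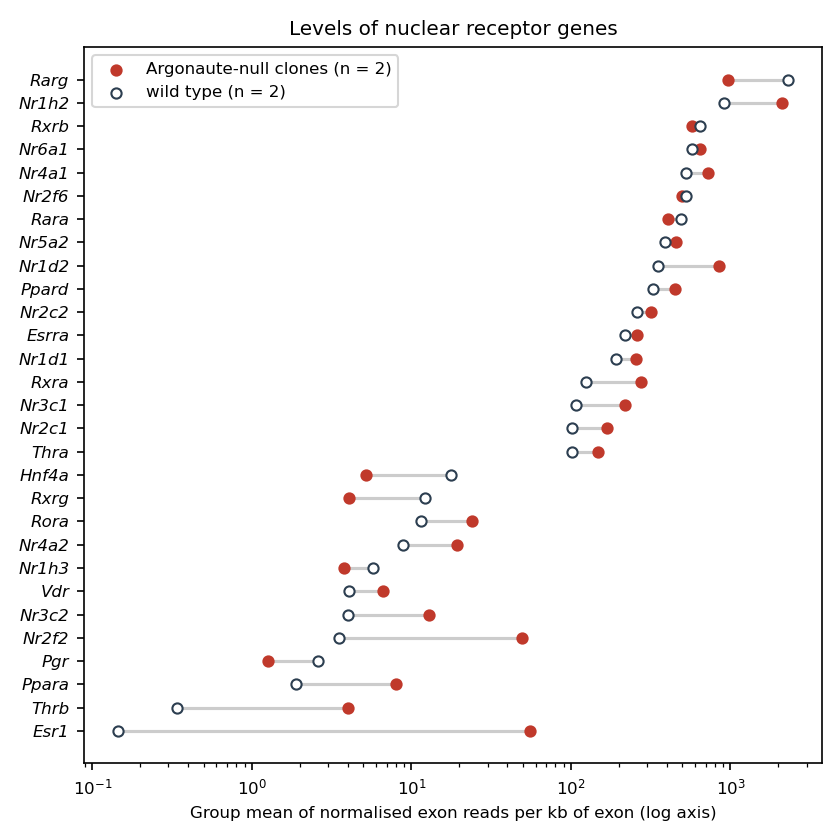
Level of the 29 members kept in every series, as normalised reads per kb of exon (log axis), in Argonaute-null clones (filled) and wild-type cells (open); each point is a group mean. Rarg leads in wild type at 2311 and Nr1h2 in the clones at 2120.3, while Esr1 and Nr2f2 have the widest gaps between the symbols. The clones carry CreERT2, whose reads cannot be told apart from those of Esr1.

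After doxycycline was removed, 20 of the 32 members changed by 96 h: 16 were higher and 4 were lower than at 0 h at a limma adjusted p below 0.05. Over all genes tested 65.0% were called in this comparison, 32.4% higher and 32.5% lower, so the number of members called was near the background. The median log2 change of the 32 was 0.31, against -0.01 over all genes. Changes of at least 2-fold were made by Nr2f2 and Rora alone among the members, against 13.4% of all genes. Each step of the course also held calls. At 24 h against 0 h, 8 members were higher and 6 lower (14 called; background 50.7%, 26.5% higher and 24.1% lower). At 48 h against 24 h, 9 were higher and 1 lower (10 called; background 39.0%, 20.2% higher and 18.8% lower). At 96 h against 48 h, 8 were higher and 6 lower (14 called; background 36.4%, 20.1% higher and 16.3% lower). The last 2 counts depended on single libraries: with 1 library left out 5 to 9 were called at 48 h against 24 h, the fewest without the shallower 48 h library, and 7 to 12 at 96 h against 48 h, the fewest without the deeper 48 h library.

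When doxycycline was given back for 48 h at 2.5 µg/mL, 15 of 30 members changed, 6 higher and 9 lower than without it. The background was 63.8%, with 31.8% higher and 32.0% lower, so the count stands for nothing particular to the family. The median log2 change was -0.14 for the members and 0.00 for all genes. Nr2f2, Rora and Esr1 changed by at least 2-fold, against 14.3% of all genes. At 0.1 µg/mL against no doxycycline 13 members changed, 4 higher and 9 lower (background 44.1%, 22.0% higher and 22.1% lower). At 2.5 µg/mL against 0.1 µg/mL 17 changed, 8 higher and 9 lower (background 41.0%, 20.0% higher and 21.0% lower). Loss and return used different control libraries. Of the 15 members called in both, 12 (80.0%) moved in opposite directions and Rara, Nr1d1 and Ppard rose in both; among all genes called in both, 96.2% moved in opposite directions. Nr4a1, Rxra, Vdr, Ppara and Nr5a2 were called on loss but not on return.

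**Figure D2:**
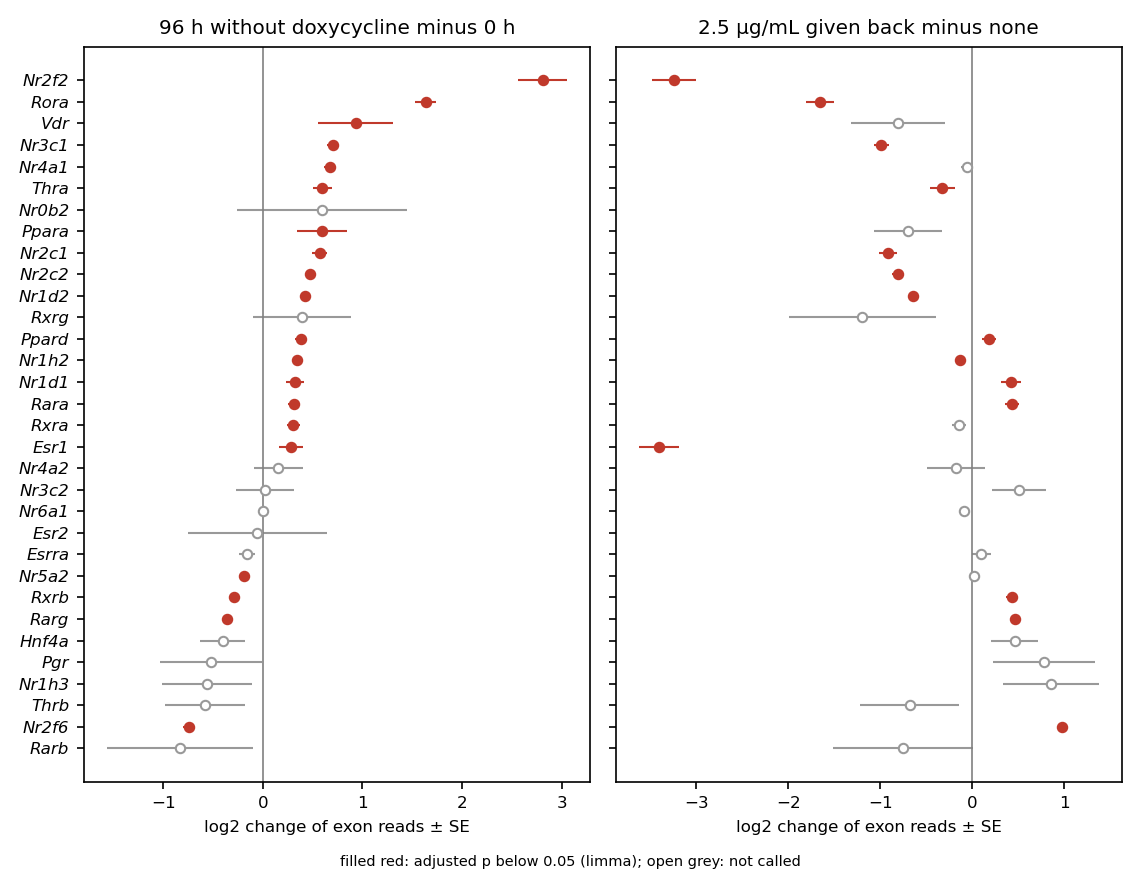
Log2 change in exon reads with its standard error for each member tested, at 96 h against 0 h and at 2.5 µg/mL against no doxycycline (red, adjusted p below 0.05). Nr2f2 and Rora lie far to the right on loss (2.81 and 1.63) and, with Esr1, far to the left on return (-3.24, -1.65 and -3.41).

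Nr2f2 (COUP-TFII), an orphan receptor of mesenchyme, veins and lymphatic vessels that mostly acts as a repressor, made the largest change of any member after removal of doxycycline. Nr2f2 (ENSMUSG00000030551; mm10 chr7:70351944-70366735, minus strand) had 64.7 and 62.4 normalised exon reads (0 h), 23.4 and 42.2 (24 h), 157 and 127 (48 h) and 473 and 432 (96 h). The 24 h libraries lay below those at 0 h and the later ones above, and no 2 times overlapped. Its log2 change was -0.99 ± 0.25 (SE) at 24 h against 0 h (adjusted p = 0.00179) and 2.81 ± 0.25 at 96 h against 0 h (adjusted p = 6.55e-10, limma). Without the lower of the 24 h libraries the early change was -0.58, with adjusted p = 0.0511. From 24 h onwards each step was up: 48 h against 24 h gave 2.13 (adjusted p = 4.81e-07) and 96 h against 48 h gave 1.67 (adjusted p = 1.14e-05). Per kb, Nr2f2 stood at 92.9 at 96 h, 18th of the 32 members, against 13.1 at 0 h, 25th of them.

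The dose series ran the other way for Nr2f2, with 358 and 331 normalised exon reads (no doxycycline), 169.6 and 122 (0.1 µg/mL) and 30.1 and 41.9 (2.5 µg/mL). The 3 doses did not overlap. The lower dose gave a log2 change of -1.26 ± 0.24 against none (adjusted p = 0.000106), and the higher dose gave -3.24 ± 0.24 (adjusted p = 4.18e-12, limma). Intron reads of Nr2f2, which come mostly from unspliced RNA, were 26.0 and 15.6 (0 h), 11.0 and 7.63 (24 h), 38.7 and 32.9 (48 h) and 127 and 162 (96 h). The intron change at 96 h against 0 h was 2.77 ± 0.39 (adjusted p = 7.85e-07), and the exon change exceeded it by 0.04, which was not called. Over the doses the introns had 77.0 and 55.004 reads (no doxycycline), 31.9 and 28.4 (0.1 µg/mL) and 11.8 and 33.1 (2.5 µg/mL), so both doses lay below the untreated libraries and overlapped each other. The intron change of -1.66 ± 0.45 at 2.5 µg/mL against none (adjusted p = 0.0033) stood beside -3.24 in exons, and it lost its call without the higher untreated library (-1.42) or the lower 2.5 µg/mL library (-0.95). Of its exon bases 7.46% overlap a transcript of the other strand. The 3′ untranslated region (UTR) of Nr2f2 in the GENCODE annotation held no match to the microRNA seed described below. Mesoderm markers moved in the same direction at 96 h and at 2.5 µg/mL, but not at 24 h. The 6 markers summed to 440.0 to 504 normalised reads at 96 h against 195 to 229 at 0 h. At 24 h, when Nr2f2 was below its 0 h level, they summed to 286 to 314. At 2.5 µg/mL the sum was 75.1 to 107, against 280.2 to 296 without doxycycline. Of the 3 markers tested, 2 were higher at 96 h (all genes, 32.4%) and 2 lower at 2.5 µg/mL (all genes, 32.0%). T (Brachyury), a defining one, was at 0 at 96 h and without doxycycline. Fibroblast markers summed to 339.9 to 419 at 96 h against 271 to 277 at 0 h, with Col1a2, Col3a1, Postn and Lum at 0 at 96 h. They were higher still at 24 h (537 to 571) and 48 h (539 to 578), and in the rescue they summed to 204 to 262 at 2.5 µg/mL against 130.0 to 166 without doxycycline, the opposite of Nr2f2. The part of such cells in the Nr2f2 result was not tested.

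**Figure D3:**
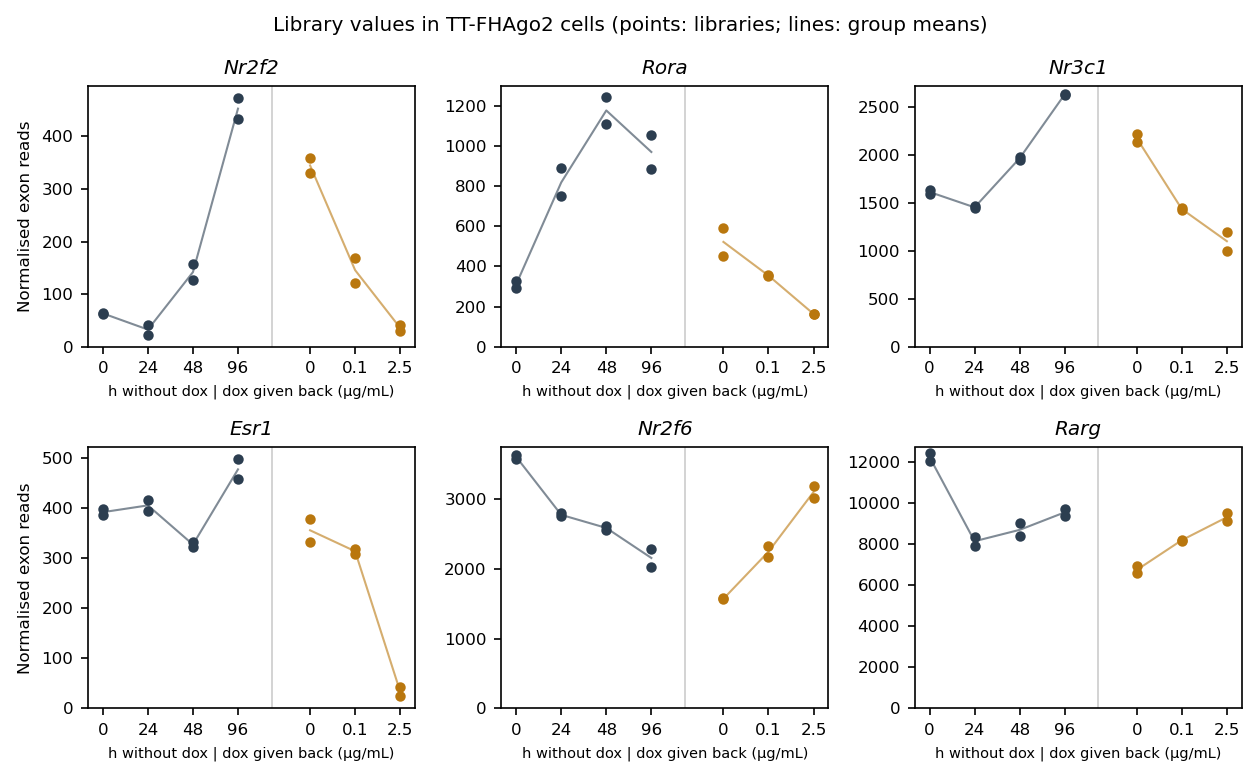
Normalised exon reads of Nr2f2, Rora, Nr3c1, Esr1, Nr2f6 and Rarg in each library (points) with group means (lines), by hours without doxycycline and by dose in µg/mL after 96 h without it. Nr2f2 dips at 24 h and reaches 473 and 432 at 96 h, Rora has already reached 749 and 888 at 24 h, and Esr1 is low at the 2.5 µg/mL dose alone (41.8 and 25.3).

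Rora, a sterol-responsive receptor that activates genes opposite the Nr1d repressors in the circadian clock, was higher from 24 h on in exons, while its intron reads did not pass the test. Rora (ENSMUSG00000032238; mm10 chr9:68653786-69388246, plus strand) had 293 and 329 normalised exon reads (0 h), 749 and 888 (24 h), 1109 and 1244 (48 h) and 886 and 1054 (96 h). Both libraries of each later time were above those at 0 h. The log2 change at 24 h was 1.39 ± 0.11 (adjusted p = 3.11e-10) and at 96 h 1.63 ± 0.11 (adjusted p = 4.09e-12, limma, both against 0 h). The rise at 48 h against 24 h was 0.53, and the lower level at 96 h against 48 h (-0.28, adjusted p = 0.0436) lost its call without either 48 h library (-0.36 and -0.20) or the lower 96 h library (-0.16). Its intron reads were 170.3 and 135 (0 h), 129 and 125 (24 h), 144 and 155 (48 h) and 158 and 159 (96 h). The intron change at 96 h against 0 h was 0.06 (adjusted p = 0.805). In the test of exon minus intron, in which each library's values were centred, Rora was higher by 1.65 at 24 h and by 1.57 ± 0.20 at 96 h against 0 h (adjusted p = 0.0155 for the second, lost without any 1 of the 4 libraries, at 0.0570 to 0.0788).

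On return of doxycycline Rora had 453 and 592 normalised exon reads (no doxycycline), 356 and 354 (0.1 µg/mL) and 165 and 163 (2.5 µg/mL), with no overlap between doses. The change at 2.5 µg/mL was -1.65 ± 0.15 (adjusted p = 2.39e-10) and at 0.1 µg/mL -0.54 (adjusted p = 0.00411), both against none; without the higher library of the untreated group the second was -0.35 with adjusted p = 0.16. Here the introns fell too, with 138 and 191 reads (no doxycycline), 204 and 187 (0.1 µg/mL) and 65.6 and 62 (2.5 µg/mL). The intron change at 2.5 µg/mL was -1.33 ± 0.22 (adjusted p = 1.38e-05), and exon minus intron was -0.28, not called.

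The microRNAs best known in mouse ES cells, those of the miR-290 and miR-302 clusters, share 1 seed. It is shown here because Argonautes act through it and because it can be looked for in the members' 3′ UTRs. The mature sequences below are those of RefSeq on GRCm38, 5′ to 3′, with the seed (bases 2 to 8) in capitals; the last one, from the miR-17 cluster, has its seed shifted by 1 base.
mmu-miR-291a-3p: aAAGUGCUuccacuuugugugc
mmu-miR-294-3p: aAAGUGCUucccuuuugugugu
mmu-miR-295-3p: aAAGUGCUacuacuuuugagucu
mmu-miR-302b-3p: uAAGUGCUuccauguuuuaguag
mmu-miR-17-5p: cAAAGUGCuuacagugcagguag

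Of the 32 members in the time course, 7 (21.9%) had the complement AGCACTT of the first seed in their 3′ UTR, read on the sense strand only. Among all genes tested 17.1% had it (2279 of 13332 with a 3′ UTR), among genes called higher at 96 h 23.5% and among those called lower 13.3%. The median 3′ UTR was 1593 bases in the members and 1146 in all genes, and a longer stretch holds more matches. Nr2c2 had 4 matches, Rora had 2, and Nr2c1, Vdr, Esr1, Hnf4a and Nr4a2 had 1 each. The complement GCACTTT of the miR-17 seed, which can overlap the first by 6 bases, was in 18.8% of the members and 14.1% of all genes. A match is a description of the letters and not a measured site. Windows are shown for Rora, Nr2c2 and Nr2c1, 3 members with matches picked because they were higher without doxycycline and lower with it. Esr1 had the same course (0.28 and -3.41), with the transgene limit given below. Vdr changed by 0.93 and -0.81 (called on loss only). Nr4a2 (0.16 and -0.17) and Hnf4a (-0.40 and 0.46) were not called. A link between match and change was not tested. The windows are given on GRCm38, plus strand, with the match in capitals.
Rora, chr9:69378962-69378991: atgtcgcgcccgAGCACTTctagaacatct
Rora, chr9:69383145-69383174: aatatctgtacatagAGCACTTgcgggtgt
Nr2c2, chr6:92167996-92168025: taccagggtaatgttAGCACTTtctaagca
Nr2c2, chr6:92168007-92168036: tgttagcactttctaAGCACTTcttatcaa
Nr2c2, chr6:92168152-92168181: catttgtaagagggcAGCACTTctagctgt
Nr2c2, chr6:92168882-92168911: caggcctgtaaccccAGCACTTgggaggct
Nr2c1, chr10:94195974-94196003: agattattagttataAGCACTTttattcat
The first pair of Nr2c2 matches lies so close that their windows overlap.

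Nr2c1 and Nr2c2, the testicular receptors TR2 and TR4, bind the same direct repeats as the retinoid receptors. Nr2c2 had 3875 and 3606 normalised exon reads (0 h), 4169 and 4617 (24 h), 5080.1 and 5219 (48 h) and 5174 and 5217 (96 h). Its 96 h libraries lay above both at 0 h, by 0.47 ± 0.05 on the log2 scale (adjusted p = 5.08e-08), with 431 and 478 intron reads at 96 h against 512 and 483 at 0 h, and exon minus intron was 0.60 (adjusted p = 0.0177, lost without any 1 library). Over the doses it had 3948 and 4105 reads (no doxycycline), 2998 and 3193 (0.1 µg/mL) and 2211 and 2381 (2.5 µg/mL), a change of -0.81 ± 0.06 at the higher dose (adjusted p = 2.87e-12, limma). Nr2c1 changed later, with 970.3 and 1001 reads (0 h), 873 and 891 (24 h), 1038 and 1095 (48 h) and 1543 and 1388 (96 h). Its change was 0.57 at 96 h against 0 h and -0.91 at 2.5 µg/mL against none. Exons of Nr2c2 share 30.7% of their bases with Mrps25 on the other strand, and the strand setting of the counting is not given, so reads of the pair may have been mixed. Mrps25 itself had 1385 and 1465 reads at 96 h against 1589.8 and 1618 at 0 h, lower in both libraries.

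Among the steroid receptors, Nr3c1, the glucocorticoid receptor, followed a course like that of Nr2f2 on a smaller scale. It had 1630.3 and 1593 normalised exon reads (0 h), 1462 and 1441 (24 h), 1976 and 1949.6 (48 h) and 2621 and 2633 (96 h). The 4 times did not overlap. The change at 96 h against 0 h was 0.70 ± 0.06 (adjusted p = 4.85e-10), and 96 h against 24 h gave 0.86 ± 0.06 (adjusted p = 4.49e-11, limma; 14 members and 57.3% of all genes were called between these times). The dip at 24 h was small, at -0.15 (adjusted p = 0.0424), and leaving out any 1 of the 4 libraries took its adjusted p above the threshold, with changes of -0.17 to -0.13. Over the doses Nr3c1 had 2128 and 2213 reads (no doxycycline), 1425 and 1442 (0.1 µg/mL) and 999.7 and 1199 (2.5 µg/mL), again without overlap, and the change at 2.5 µg/mL was -0.99 ± 0.08 (adjusted p = 1.92e-11). Its intron reads were 106 and 114 (no doxycycline), 78.7 and 54.5 (0.1 µg/mL) and 20.2 and 0 (2.5 µg/mL), all lower at 2.5 µg/mL than at none. The fitted change of -4.59 (adjusted p = 1.43e-05) rests on the library at 0, and without it the change was -2.38. On loss the introns had 65.4 and 83.0 reads (0 h), 37.3 and 50.4 (24 h), 43.0 and 47.1 (48 h) and 78.5 and 73.3 (96 h), and their change at 96 h against 0 h was 0.04, not called.

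Esr1, the oestrogen receptor, could not be read as the native gene alone. Its exon reads appeared in lines that carry CreERT2, a Cre fused to a mutated ligand-binding domain of the human receptor, and the reads of gene and transgene cannot be told apart. Esr1 (ENSMUSG00000019768; mm10 chr10:4611593-5005614, plus strand) had 305 and 551 normalised exon reads in Argonaute-null clones and 314, 269 and 181 in E7, against 0 and 0 in B9 and 2.23 and 0 in wild type. It passed the filter of the genetic series through the CreERT2 lines alone. In TT-FHAgo2 cells Esr1 had 379 and 332 exon reads (no doxycycline), 309 and 318 (0.1 µg/mL) and 41.8 and 25.3 (2.5 µg/mL). The change of -3.41 ± 0.22 at 2.5 µg/mL against none (adjusted p = 2.8e-13, limma) was the largest fall of any member in that comparison. Intron reads, which a cDNA transgene lacks, were 32.9 and 38.6 at none and 35.3 and 21.4 at 2.5 µg/mL, with a change of -0.36 that was not called. In the time course Esr1 had 497 and 457 exon reads at 96 h against 397 and 386 at 0 h. That change of 0.28 (adjusted p = 0.0379) lost its call without either 0 h library (0.30 and 0.26) or the higher 96 h library (0.22). Its few intron reads were 25.014 and 14.5 (0 h), 4.39 and 12.2 (24 h), 7.29 and 4.48 (48 h) and 50.3 and 56.2 (96 h), with both 96 h libraries above all others. The intron rise of 1.43 ± 0.57 at 96 h against 0 h (adjusted p = 0.0422) lost its call without any 1 of the 4 libraries (1.06 to 1.80), and 96 h against 48 h gave 3.01 (adjusted p = 0.000333).

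Nr2f6, an orphan relative of Nr2f2 best known as a repressor of cytokine genes in T cells, was lower at each later time and higher at each dose. At 24 h it fell as Nr2f2 did (-0.38 against 0 h, adjusted p = 1.22e-05), while at 96 h and on return the 2 genes had opposite signs. Nr2f6 (ENSMUSG00000002393; mm10 chr8:71374123-71381960, minus strand) had 3571 and 3632 normalised exon reads (0 h), 2749 and 2794 (24 h), 2553 and 2615 (48 h) and 2277 and 2031 (96 h), without overlap between times. Its change at 96 h against 0 h was -0.74 ± 0.06 (adjusted p = 1.18e-10). Over the doses it had 1561 and 1577 reads (no doxycycline), 2321 and 2167 (0.1 µg/mL) and 3180.1 and 3017 (2.5 µg/mL), a change of 0.98 ± 0.06 at the higher dose (adjusted p = 2.34e-13, limma). The introns of Nr2f6 were not called on loss, with 1079 and 959 reads at 96 h against 904 and 917 at 0 h, and exon minus intron was -0.91 ± 0.12 (adjusted p = 0.0169, lost without any 1 library). On return they rose with the exons, by 0.93 at 2.5 µg/mL. Exons of Nr2f6 share 54.4% of their bases with Ocel1 on the other strand, and Ocel1 itself had 153 and 157 reads at 96 h against 376 and 388 at 0 h, also lower in both libraries. The exon result for Nr2f6 is therefore uncertain.

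Of the retinoic acid receptors, Rarg fell and Rara rose without doxycycline. Rarg had 12066 and 12412 normalised exon reads (0 h), 8357 and 7920.0 (24 h), 8375 and 9009.9 (48 h) and 9700.0 and 9391 (96 h), so that all later libraries were below those at 0 h. Its change was -0.59 at 24 h (adjusted p = 3.75e-10) and -0.36 at 96 h (adjusted p = 3.38e-07, limma), and its introns fell too, by 0.27 at 96 h. The intron call at 96 h was lost without the higher 0 h library (-0.21) or the lower 96 h library (-0.23). Over the doses Rarg had 6569 and 6912 reads (no doxycycline), 8171 and 8212 (0.1 µg/mL) and 9493 and 9123 (2.5 µg/mL), a change of 0.47 at the higher dose (adjusted p = 1.67e-09). Rara had 2354 and 2225 reads (0 h), 3214 and 3277 (24 h), 3363 and 3369 (48 h) and 2886 and 2786 (96 h). It was higher by 0.31 at 96 h against 0 h and also by 0.44 at 2.5 µg/mL against none, where it had 1475 and 1511 reads (no doxycycline), 1809.6 and 1666 (0.1 µg/mL) and 2171 and 1880.3 (2.5 µg/mL). The step from none to 0.1 µg/mL lost its call without either untreated library (0.20 and 0.24) or the higher 0.1 µg/mL library (0.16).

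Among the heterodimer partners, Rxrb followed Rarg, with a log2 change of -0.29 at 96 h against 0 h (adjusted p = 4.29e-05) and 0.44 at 2.5 µg/mL against none (adjusted p = 1.44e-06, limma). Rxra had 2054 and 2200.1 normalised exon reads at 96 h against 1656 and 1787 at 0 h, a change of 0.31 (adjusted p = 0.000253). Over the doses Rxra had 1437 and 1369.9 reads (no doxycycline), 1033 and 1047 (0.1 µg/mL) and 1262 and 1279 (2.5 µg/mL), so it fell at the low dose (-0.43) and was higher at the high dose than at the low (0.29). Nr5a2, the Oct4 activator, also turned between doses, with 2014 and 2065 reads (no doxycycline), 2576 and 2554 (0.1 µg/mL) and 2130.1 and 2020.3 (2.5 µg/mL). Its steps were 0.33 (adjusted p = 7.94e-05) and -0.31 (adjusted p = 0.000233). Rxrg, the retinoid X receptor of brain and muscle, had few reads, 5.91 and 11.9 (no doxycycline), 20.1 and 26.9 (0.1 µg/mL) and 1.31 and 6.33 (2.5 µg/mL). Its step of -2.56 at 2.5 against 0.1 µg/mL (adjusted p = 0.0116) lost its call without either 0.1 µg/mL library (-2.76 and -2.36) or the lower 2.5 µg/mL library (-1.73).

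The thyroid hormone receptor Thra and the clock repressors Nr1d1 and Nr1d2 (Rev-erb alpha and beta) were higher at 24 h and 96 h than at 0 h. Thra had 445 and 492 normalised exon reads (0 h), 702 and 715 (24 h), 699 and 689 (48 h) and 671 and 747 (96 h), a change of 0.60 ± 0.10 at 96 h against 0 h (adjusted p = 1.15e-05). Its change at 2.5 µg/mL against none was -0.32 (adjusted p = 0.044) and lost its call without either untreated library (-0.37 and -0.28) or the lower 2.5 µg/mL library (-0.13). Nr1d2 had 7116 and 7161 reads (0 h), 9657 and 9504 (24 h), 9778 and 9721 (48 h) and 9491 and 9699.7 (96 h), with no later library near those at 0 h. It was higher by 0.43 at 96 h (adjusted p = 4.04e-09) and lower by 0.64 at 2.5 µg/mL (log2 change -0.64, adjusted p = 2.19e-11, limma). Nr1d1, whose exons overlap those of Thra by 263 bases on the other strand, rose in both settings, by 0.32 at 96 h and by 0.42 at 2.5 µg/mL. Without the lower 0 h library the change of Nr1d1 at 96 h was 0.26, with adjusted p = 0.0525, and its rise of 0.30 at 24 h lost its call without that library (0.23) or the higher 24 h library (0.20).

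Of the receptors of lipids, Nr1h2, Ppard and Ppara were called higher on loss, while Nr1h3, the other liver X receptor, was not called (-0.56). Nr1h2 (liver X receptor beta), an oxysterol sensor, had 5789.7 and 5959 normalised exon reads at 96 h against 4474 and 4789 at 0 h, a change of 0.34 (adjusted p = 5.14e-06). Ppard, a fatty acid receptor, rose by 0.38 at 96 h (adjusted p = 1.03e-05) and by 0.18 at 2.5 µg/mL (adjusted p = 0.0419, limma). The second call was lost without either untreated library (0.22 and 0.14) or the higher 2.5 µg/mL library (0.10). Nr4a1 had 2941 and 2842 reads at 96 h against 1748 and 1882 at 0 h, a change of 0.67 (adjusted p = 1.09e-09), and its introns rose by 1.12. The vitamin D receptor Vdr had 65.1 and 51.4 reads at 96 h against 29.0 and 30.6 at 0 h (0.93, adjusted p = 0.0338). The call for Vdr was lost without either 0 h library (0.89 and 0.97) or the higher 96 h library (0.77). Ppara had 83.5 and 107 reads at 96 h against 51.2 and 75.5 at 0 h (0.59, adjusted p = 0.0423), and its call was lost without the lower 0 h library (0.32) or the higher 96 h library (0.42). Hnf4a, a receptor of liver and visceral endoderm, had 93.2 and 140.0 reads at 96 h against 259.6 and 191 at 48 h (-0.96, adjusted p = 0.0018), and without the higher 48 h library the change was -0.74, with adjusted p = 0.0664.

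The other 12 members of the time course were not called at 96 h against 0 h. Nr6a1, the Oct4 repressor, had 9753 and 10006 normalised exon reads at 96 h against 9876 and 9832 at 0 h, a change of 0.00 ± 0.04. Esrra, an oestrogen-related receptor of energy metabolism, had 968 and 866 reads at 96 h against 1021 and 1026 at 0 h, a change of -0.16 (adjusted p = 0.084). The mineralocorticoid receptor Nr3c2 had 71.9 and 77.5 reads at 96 h against 60.9 and 88.6 at 0 h, with overlap. Thrb, Rarb, Nr1h3, Hnf4a, Rxrg, Esr2, Pgr, Nr4a2 and Nr0b2 had changes of -0.83 (Rarb) to 0.60 (Nr0b2). Of these 9 only Hnf4a passed 100 reads in any library, and the standard errors were wide, up to 0.85 for Nr0b2.

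In the introns, 11 of 27 members changed at 96 h against 0 h, 8 higher and 3 lower (background 44.6%, 22.7% higher and 21.8% lower). Without 1 library 6 to 9 were called, the fewest without the shallower 96 h library. At 2.5 µg/mL against none 15 of 26 changed, 5 higher and 10 lower (background 46.4%, 24.3% higher and 22.1% lower), and without 1 library 9 to 16, the fewest without the deeper untreated library. Exon minus intron was called for 2 of 27 members at 24 h (Rora and Nr2f6; background 4.12%) and for 4 of 27 at 96 h, both against 0 h. At 96 h Rora (1.57), Nr2c2 (0.60) and Nr1d2 (0.48) were higher and Nr2f6 (-0.91) was lower, against a background of 9.08%, 4.77% higher and 4.31% lower. At 2.5 µg/mL against none 4 of 25 were called (background 11.3%, 5.36% higher and 5.98% lower): Nr5a2 (0.88) and Nr6a1 (0.60) were higher, and Esr1 (-3.01) and Nr4a2 (-1.59) lower. Exon reads of Esr1 cannot be told apart from the CreERT2 transgene, so its value may not compare exons and introns of 1 gene. Nr4a2, an orphan receptor of dopamine neurons, had intron reads of 70.1 and 65.6 (no doxycycline), 80.8 and 90.0 (0.1 µg/mL) and 208 and 169 (2.5 µg/mL). Its exon reads stayed at 70.9 and 59.3, 61.6 and 49.5, and 54.9 and 60.1 at these doses. None of the 8 exon-minus-intron calls at 96 h and 2.5 µg/mL held when any 1 library of the groups compared was left out or when those groups were fitted alone, at adjusted p values of 0.0570 to 0.200 without a library. The lowest was that of Rora at 96 h without a 0 h library, and the highest that of Nr6a1.

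**Figure D4:**
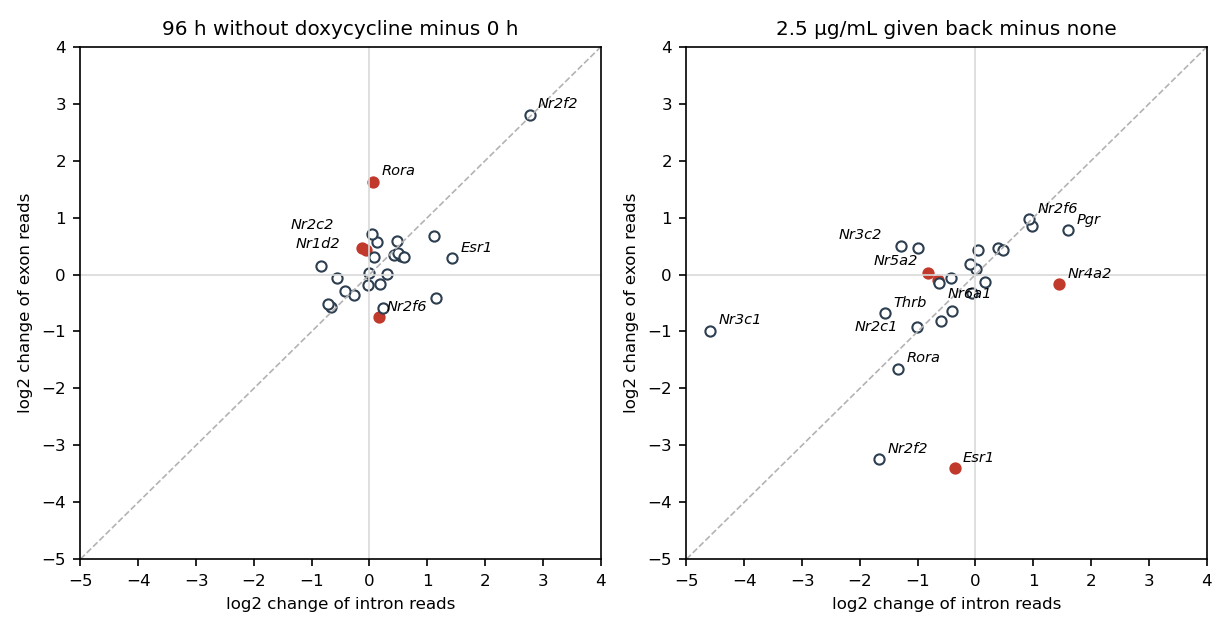
Log2 change in exon reads against that in intron reads for members tested in both, at 96 h against 0 h and at 2.5 µg/mL against no doxycycline (red, exon minus intron at adjusted p below 0.05). On loss Nr2f2 lies near the diagonal (2.81 in exons, 2.77 in introns) and Rora above it (1.63 and 0.06), and on return Nr3c1 has the lowest intron value. Exon reads of Esr1 cannot be told apart from those of CreERT2.

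In the genetic series Nr2f2, Thrb, Nr1d2, Nr1h2 and Rxra were higher in Argonaute-null clones than in wild type. With Esr1, which is among the 29 tested only for its level in CreERT2 lines and whose call says nothing further, 6 were called higher and 0 lower (background 18.6%, 10.9% higher). The call for Thrb was favoured by the filter: its mean was 2.23 in wild type, and it was kept for its level in the other lines. Without 1 library 2 to 4 were called, the fewest without the wild-type library at 0 for Thrb. Nr2f2 had 137 and 345 normalised exon reads in clones, 45.5, 35.7 and 84.3 in E7, 3.83 and 3.84 in B9, and 15.6 and 18.5 in wild type. No 2 of these groups overlapped. The change was 3.60 ± 0.68 in clones against wild type (adjusted p = 0.00608) and 5.50 ± 0.68 in clones against B9 (adjusted p = 0.00171, limma). Without the higher clone library the change against wild type was 2.94, with adjusted p = 0.0537. Clones against E7, whose labels differ by the human Ago2 and which are also different lines, gave 2.06 ± 0.62 for Nr2f2 (limma adjusted p = 0.122). The mesoderm markers summed to 192 to 229 in clones, 169.9 to 336 in E7, 69.2 to 161 in B9 and 159 to 228 in wild type. For these sums clones and wild type overlapped, unlike for Nr2f2.

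Nr1h2 had 3075 and 5499.6 normalised exon reads in clones, 2861, 3125 and 2993 in E7, 2299 and 2407 in B9, and 1803 and 1887 in wild type (clones against wild type, 1.16 ± 0.27, adjusted p = 0.0155). Nr1d2 had 5191 and 2722 in clones, 3464, 5320.3 and 5104 in E7, 2333 and 2468 in B9, and 1508 and 1746 in wild type (1.21 ± 0.32, adjusted p = 0.0257). Rxra had 1144 and 1873 in clones, 1076, 1260.5 and 1246 in E7, 754 and 872 in B9, and 619 and 744 in wild type (1.11 ± 0.29, adjusted p = 0.0233). For each of the 3 receptors clones and E7 overlapped and both lay above wild type. The B9 libraries lay above wild type as well for each of them, though without a call. Thrb, the other thyroid hormone receptor, was low, with 20.3 and 32.0 reads in clones, 23.3, 29.9 and 69.0 in E7, 9.59 and 25 in B9, and 4.47 and 0 in wild type (3.50 ± 0.99, adjusted p = 0.0333). These 4 calls were lost without single libraries: Nr1h2 without either wild-type library (1.12 and 1.19), and Nr1d2 without either wild-type library (1.11 and 1.32) or the higher clone library (0.75). Rxra lost its call without either wild-type library (0.98 and 1.24) or the higher clone library (0.75), and Thrb without the wild-type library at 0 (2.28) or either clone library (3.82 and 3.18).

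Against B9, Nr2f2 was higher in clones, and with Esr1, fixed by the filter as above, 2 of 29 were called higher and 0 lower (background 13.0%, 7.61% higher). Without the deeper clone library 6 were called and without the other one 4. In E7 against wild type Thrb (4.00, favoured by the filter as above) and Nr1d2 (1.49) were higher. With Esr1 3 of 29 were called higher and 0 lower (background 4.58%, 3.10% higher). Without 1 library 1 or 2 were called, 1 without the wild-type library at 0 for Thrb or either of 2 E7 libraries. The call for Thrb in E7 was lost without the wild-type library at 0 (2.78) or any 1 of the 3 E7 libraries (4.31, 4.14 and 3.55). That for Nr1d2 was lost without either wild-type library (1.38 and 1.59) or either of the higher E7 libraries (1.37 and 1.40). Clones against E7 gave 0 calls by limma (background 1.51% at adjusted p below 0.05) and 0 by limma-voom. By limma 2 members had an unadjusted p below 0.05, for which no share over all genes is given. B9 against wild type gave 0 calls by limma (background 0.0684% at adjusted p below 0.05) and 0 by limma-voom. Here 3 members had an unadjusted p below 0.05 by limma, again without a share over all genes. Rora, which led the time course with Nr2f2, had 433 and 161 reads in clones, 176, 386 and 526 in E7, 137 and 159.5 in B9, and 94.4 and 187 in wild type, so its clone and wild-type libraries overlapped. Rarg had 3222 and 3312 reads in clones against 9542 and 6166 in wild type, without overlap but without a call.

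**Figure D5:**
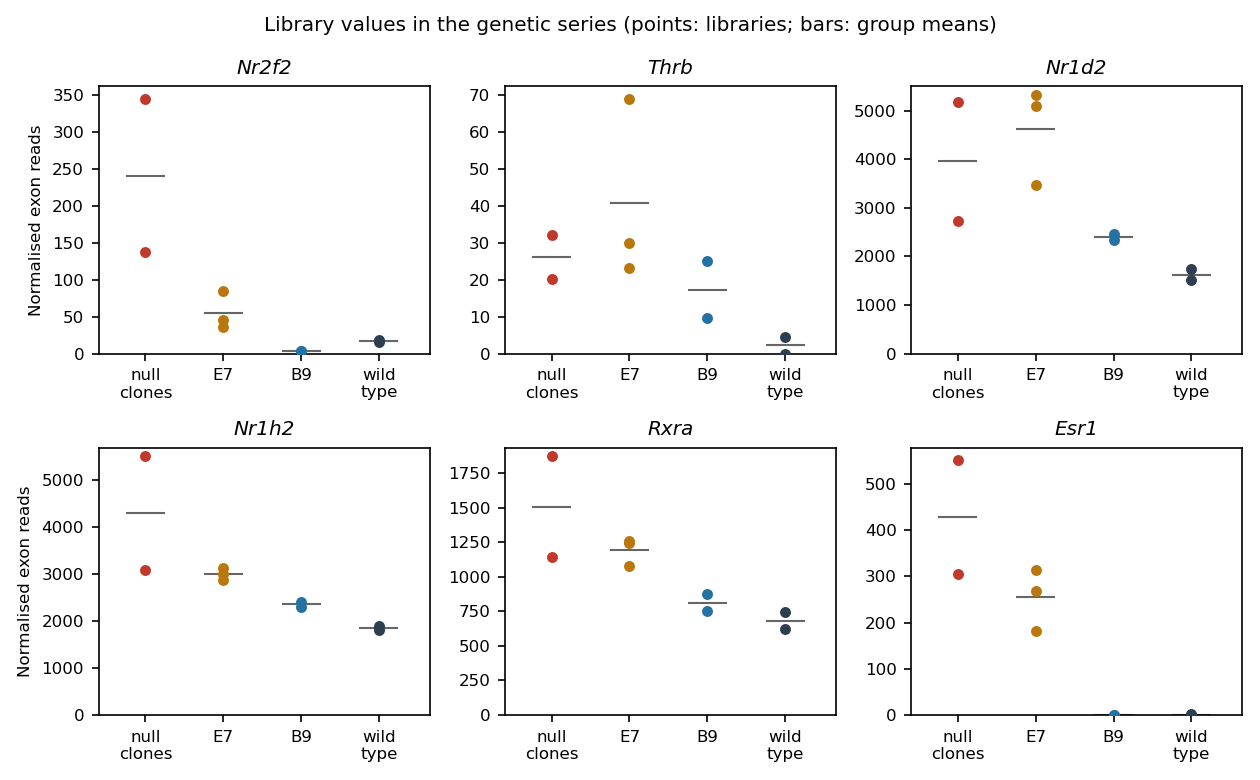
Normalised exon reads of Nr2f2, Thrb, Nr1d2, Nr1h2, Rxra and Esr1 in each library of the Argonaute-null clones, E7, B9 and wild type (points; bars are group means). The clone libraries of Nr2f2 (137 and 345) lie above every other library, while for Nr1d2 the clones (5191 and 2722) overlap E7.

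Genes that work with the receptors were followed through lists of cofactors, ligand supply and known targets. These lists were chosen with earlier results of the data known, so their counts are a description and not an independent test. The counts stand beside those of all genes tested, of which 32.4% were higher and 32.5% lower at 96 h against 0 h, and 31.8% higher and 32.0% lower at 2.5 µg/mL against none. Of the liver X receptor targets 8 of 12 tested were higher and 1 lower at 96 h against 0 h, with a median log2 change of 0.58 against -0.01 over all genes. On return, 3 of the 12 were higher and 6 lower, with a median of -0.17. Abca1, which exports cholesterol from cells, averaged 7100 ± 197 normalised reads at 96 h and 1675 ± 20.1 at 0 h (SD, n = 2 each), a change of 2.08 on loss and -2.12 at 2.5 µg/mL against none. Mylip, a ubiquitin ligase for the LDL receptor, changed by 1.90 and -1.24, and Abcg1, a sterol transporter, by 1.83 and -1.20. Pltp, which transfers phospholipids between lipoproteins, changed by 1.06 and -0.81, and Scd1, a fatty acid desaturase, by 1.03 and -0.28. Targets of the peroxisome proliferator-activated receptors were higher for 9 of 14 and lower for 4 at 96 h (median 0.72), and lower for 9 and higher for 3 at 2.5 µg/mL (median -0.57). Among these Pdk4, a brake on glucose oxidation that also stands on the oestrogen-related receptor list, changed by 1.55 and -1.45.

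Of the retinoic acid targets 6 of 14 were higher and 3 lower at 96 h against 0 h (65.0% of all genes called), and 4 were higher and 4 lower at 2.5 µg/mL against none (63.8% of all genes called), so at 96 h the number called was near the background. The homeobox genes Gbx2 (-1.74 and 1.65), Meis1 (-1.62 and 1.48) and Cdx1 (-1.18 and 1.30) fell on loss and rose on return. Tgm2, a transglutaminase (1.42 and -0.78), Dhrs3, which reduces retinal (1.37 and -1.60), and Meis2 (1.05 and -1.18) did the reverse. Of the genes of retinoid supply and breakdown 4 of 14 were higher and 3 lower at 96 h, and 3 were higher and 2 lower at 2.5 µg/mL. Crabp1, a binding protein for retinoic acid, averaged 142 ± 49.1 normalised reads at 96 h against 287 ± 41.8 at 0 h (log2 change -1.04), and 186 ± 2.33 at 2.5 µg/mL against 33.6 ± 5.79 without doxycycline (2.44). Rbp4, the retinol carrier of plasma, averaged 14.4 ± 1.07 at 96 h against 61.1 ± 22.9 at 0 h (-1.97), and 25.9 ± 13.2 at 2.5 µg/mL against 0.985 ± 1.39 without doxycycline, a group near 0. Fabp5, a fatty acid binding protein, fell by 1.04 at 96 h and had a change of 0.39 at 2.5 µg/mL that was not called.

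Among coactivators and corepressors 12 of 28 were higher and 11 lower at 96 h against 0 h, while at 2.5 µg/mL 5 were higher and 15 lower than without doxycycline (all genes, 65.0% called at 96 h, and 31.8% higher and 32.0% lower at 2.5 µg/mL). Lcor, a ligand-dependent corepressor, averaged 1591 ± 80.4 normalised reads at 96 h and 613 ± 9.43 at 0 h (SD, n = 2 each), with changes of 1.38 on loss and -2.58 on return. Ncoa7, a coactivator of the oestrogen receptor, changed by 1.33 and -1.29, and Bud31 by -1.08 and 0.99. Glucocorticoid receptor targets were higher for 7 of 13 and lower for 4 at 96 h, and higher for 6 and lower for 5 at 2.5 µg/mL, against 65.0% and 63.8% of all genes called in either direction. Zbtb16 (1.46 and -2.10) and Tsc22d3 (-1.03 and 1.34), both known to be induced by glucocorticoids, went in opposite directions. Dusp1, a phosphatase of MAP kinases, rose by 1.06 at 96 h and had a change of -0.14 at 2.5 µg/mL that was not called. Targets of the oestrogen-related receptors were higher for 5 of 15 and lower for 4 at 96 h, and higher for 5 and lower for 5 at 2.5 µg/mL. Of the heat-shock chaperones that hold unliganded steroid receptors 1 of 11 was higher and 6 lower at 96 h (all genes, 32.4% and 32.5%), and 6 were higher and 0 lower at 2.5 µg/mL (all genes, 31.8% and 32.0%).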

How the data were processed

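The authors deposited exon and intron tables of 3 series for 18412 genes, whose values are a signal: the mean of normalised reads over the libraries of a group, per the file headers. TopHat2 2.0.12, DESeq and mm10 are named in the submitters' processing notes; for the read counter, its strand setting and the gene models, nothing is stated in the sources used here. Library values were recovered from the means, since a mean adds up whole reads, each weighted by its library's size factor. This gave a single solution for 404962 of 405064 values. The other 102, of which 101 are E7 exon values, were left out of the genetic tests. The search was tested on simulated data. Libraries are numbered by depth within a group, and which is which sample is unknown, so C62 and C86 cannot be named apart.

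Changes are on the scale of log2(normalised reads + 1), which understates the change of low genes. The test was limma 3.58.1 (R 4.3.3), fitted once to each table with all its groups and a variance trend, for genes with a mean of at least 10. Benjamini-Hochberg adjustment ran over all genes within a comparison, with a threshold of 0.05, in 12 exon comparisons. The design had named this test for deposited library values; it was run on the recovered ones. For exon minus intron, exon and intron libraries were matched by the correlation of their deviations, which was weak in the time course and the rescue (0.0258 to 0.17). Replicates of a TT-FHAgo2 group come from 1 line, as do those of E7, of B9 and of wild type. Their p-values measure the spread between these libraries, which may be technical.

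By rule, full values were for members called with a log2 change of at least 1 in either direction at 96 h against 0 h, at 2.5 µg/mL against none or in clones against E7: Nr2f2, Rora and Esr1. Library values of other members, and Ocel1 and Mrps25, were added after their values were seen. List genes are named where called with such a change at 96 h against 0 h, up to 6 per list; 1 such gene is not reported here. Members and lists were chosen with earlier results of these data known. Sequences came from RefSeq and GENCODE on GRCm38; protein sequences were not used here. Alternatives were other pseudocounts, filters, scalings and fits, and leaving out each library.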

Additional observations from a re-analysis of the deposited data

Results flagged for a closer look

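The changes of Nr2f2 and Nr3c1 at 24 h and at 96 h, both against 0 h, had opposite signs, and the direct comparison of the 2 times was past the threshold for each. Nr2f2 was higher at 96 h than at 24 h by 3.80 ± 0.25 on the log2 scale (limma adjusted p = 9.33e-12), with both 96 h libraries above both 24 h libraries. Nr3c1 was higher by 0.86 ± 0.06 (limma adjusted p = 4.49e-11), likewise in every library. The dip of Nr3c1 at 24 h itself lost its call without any 1 of the 4 libraries compared.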

How the results depend on the processing

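No paired analysis was possible because the columns carry no replicate numbers. Tests on counts by edgeR or DESeq2, though planned as alternatives, were not run, since no deposited column holds counts; limma-voom on the recovered reads and another matching of exon and intron libraries were added after seeing the data. Under pseudocounts, filters, scalings and fits, 972 of 1025 values of named members kept direction and call and 53 lost the call; under leaving out 1 library 438 of 595 did and 157 lost it, with 0 reversed. Without a filter on low values 6 members were called at 48 h against 24 h (10 with it), and 0 in exon minus intron at 2.5 µg/mL against none (4 with it). With only the 2 groups compared in the fit, exon minus intron gave 0 calls at 96 h and 0 at 2.5 µg/mL (4 each with all groups). The cause was not tested. Leaving out each library in turn gave 10 to 14 exon calls at 24 h against 0 h, 5 to 9 at 48 h against 24 h, 7 to 12 at 96 h against 48 h, and 17 to 20 at 96 h against 0 h. It gave 9 to 14 at 0.1 µg/mL against none, 12 to 17 at 2.5 against 0.1 µg/mL, and 12 to 17 at 2.5 µg/mL against none. In the genetic series it gave 0 to 3 for clones against E7 (3 without the deeper clone library), 2 to 6 for clones against B9, 2 to 4 for clones against wild type, 1 to 2 for E7 against wild type and 0 to 0 for B9 against wild type. Introns gave 6 to 9 at 96 h against 0 h and 9 to 16 at 2.5 µg/mL against none; exon minus intron gave 0 to 0 in both. In the genetic series exon depth ran from 13.52 to 53.69 M reads and the standard errors were the widest of the 3 series; depth was not tested as the cause.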

Other observations

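Cells at 2.5 µg/mL doxycycline for 48 h were sampled both as the 0 h group of the time course and as the highest dose of the rescue. Esr1 had 41.8 and 25.3 normalised exon reads in the rescue libraries and 397 and 386 in those of the time course. For Nr2f2 the rescue libraries had 30.1 and 41.9 and the time course libraries 64.7 and 62.4. The tables were normalised apart and the cells of the rescue had 96 h without doxycycline first, so these levels stand side by side without a test.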
